A study of Mus musculus with 6 samples.

Results

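The enzymes that make, use and recycle glutathione, together with the enzymes that remove superoxide and peroxides, were measured in tuft cells of the mouse ileum. The genes were taken by symbol from the gene table of the study: the soluble glutathione transferases (Gst), the microsomal ones (Mgst), the glutathione peroxidases (Gpx), the peroxiredoxins (Prdx), the thioredoxins Txn1 and Txn2, the thioredoxin reductases (Txnrd), the superoxide dismutases (Sod), and Gclc, Gclm, Gss, Gsr, Cat, Nqo1, Hmox1, Nfe2l2 and Keap1. This gave 57 of the 23420 genes in the table. The rule reads gene names and no measured value.

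The 6 libraries carry the numbers of mouse replicates and form 1 group, and no other cell population, genotype or treatment stood beside them. All came from Gfi1b-eGFP/+ mice on a C57BL/6J background, in which green fluorescent protein is made from the locus of the transcription factor Gfi1b, a tuft cell marker within the epithelium, so that each mouse keeps 1 intact copy of the gene. The sort kept cells that were positive for GFP and EpCam and negative for CD45 and propidium iodide, and their RNA was amplified by a full-length SMART-Seq2 protocol. The methods describe young adult mice, and nothing says whether cells of several mice entered a library, so errors and p-values measure the spread between these libraries, which may be partly technical.

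Expression is given as TPM, the share of transcripts from a gene after correction for transcript length, scaled to sum to 1000000 in each library. Levels of different genes are set side by side on this scale. A bias of capture, amplification or length correction that is particular to a gene would recur in every library. The p-values between genes do not separate such a bias from abundance. The 10 pairs of genes tested below were chosen with earlier results of these data known. Their p-values, and the adjustment over the 10 pairs, therefore depend on which pairs were picked. TPM keeps no read number, the depth is therefore unknown, and a gene listed at 0 has no detection limit. Libraries listed 13044 to 13308 genes above 0. The ribosomal RNA precursor Rn45s took 23.1% to 32.6% of the TPM, which lowers the values of all other genes by a share that differed between libraries. Of the 14 tuft cell markers looked for, 13 were found, and all 13 were listed above 0 in every library and averaged 10 TPM or more. Their summed level ranged from 4792 to 8017 TPM. Markers of other cells were present as well, with summed levels of 3571 to 21441 TPM for Paneth cells (7 of 7 markers above 0 in every library), 7703 to 16268 TPM for enterocytes (8 of 8), 778 to 4318 TPM for goblet cells (7 of 7), 426 to 920 TPM for stem and transit-amplifying cells (7 of 7), 379 to 537 TPM for enteroendocrine cells (3 of 9) and 123 to 302 TPM for lymphocytes (6 of the 7 found). Sct alone made up most of the enteroendocrine sum, with 331 to 474 TPM. Of the lymphocyte markers, Ptprc stood at 74.2 to 171 TPM, highest in replicates 1 and 2, and Gzma at 10.4 to 158 TPM. Cd3e and Cd8a averaged 4.38 and 2.83 TPM. The part of these other cells in the levels below was not tested. In a sorted bulk sample, fewer cells of a type and less RNA per cell cannot be told apart.

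Glutathione is a small thiol peptide that is built by glutamate-cysteine ligase and glutathione synthetase, spent by peroxidases that reduce peroxides and by transferases that attach it to reactive compounds, and restored from its oxidized form by glutathione reductase with NADPH. The thioredoxin system works beside it, with thioredoxin reductase restoring thioredoxin, which in turn restores the peroxiredoxins. The transcription factor NRF2, encoded by Nfe2l2 and held in check by KEAP1, is known for switching many of these genes on, and in the small intestine they meet reactive compounds from food, microbes and inflammation.

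Most of the 57 genes were expressed, and several were among the more abundant transcripts of the table. Of the 57, 42 (73.7%) were listed above 0 in every library, against 47.2% of all genes. An average of 10 TPM or more was reached by 41 (71.9%), against 29.8% of all genes, and 100 TPM or more by 16 (28.1%), against 4.5% of all genes. The median of the means was 22.5 TPM over the 57 genes and 1.24 TPM over the whole table. Together they took 0.708% to 1.03% of the TPM of a library. Since no other cell type was sequenced, none of these levels can be called particular to tuft cells.

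**Figure D1:**
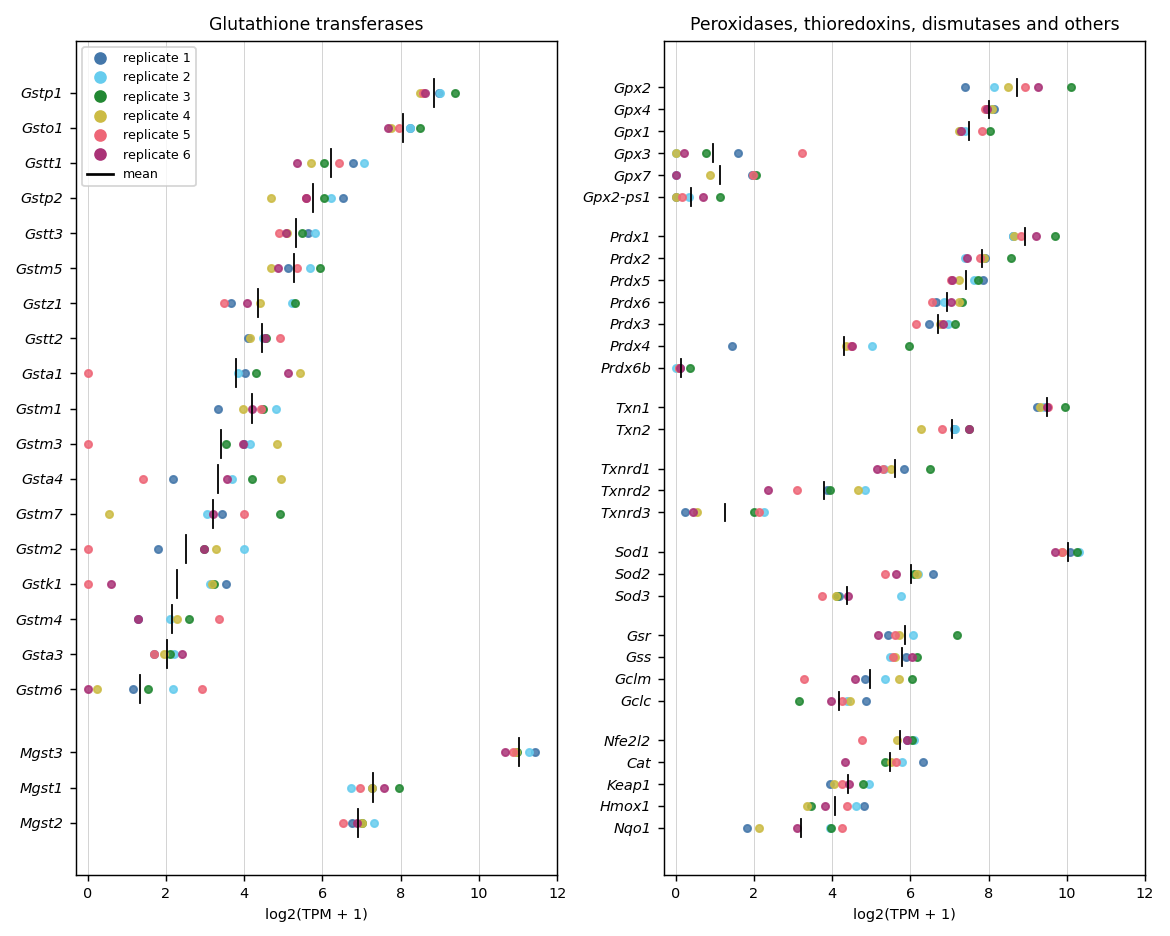
Expression of the 51 genes that were listed above 0 in any library, as log2(TPM + 1) on the x axis, grouped by family, with 1 point per library (6 libraries) and a black bar for the mean of the log2 values. Mgst3 stands highest at 1628 to 2784 TPM, and Gsta1, Gstk1, Gstm2 and Gstm3 each have 1 point at 0, that of replicate 5.

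In order of mean level, the leading genes were Mgst3, Sod1, Txn1, Prdx1, Gpx2 and Gstp1. Among the 41 genes that averaged 10 TPM or more, the gene above was higher in all 6 libraries for 4 of the 40 neighbouring pairs in this order, namely Mgst3 over Sod1, Sod1 over Txn1, Txn1 over Prdx1, and Gstp1 over Gsto1. The ranges of the neighbours overlapped in 38 of the 40 pairs, with Mgst3 over Sod1 and Gstp1 over Gsto1 as the exceptions. Prdx1 over Gpx2 and Gpx2 over Gstp1 each held in 3 of 6 libraries. Below Gsto1 no neighbour was higher in all 6, so the order of neighbours there is not larger than the spread between libraries. Genes farther apart in the order could still differ in all 6, as Gpx1 did from Cat.

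**Figure D2:**
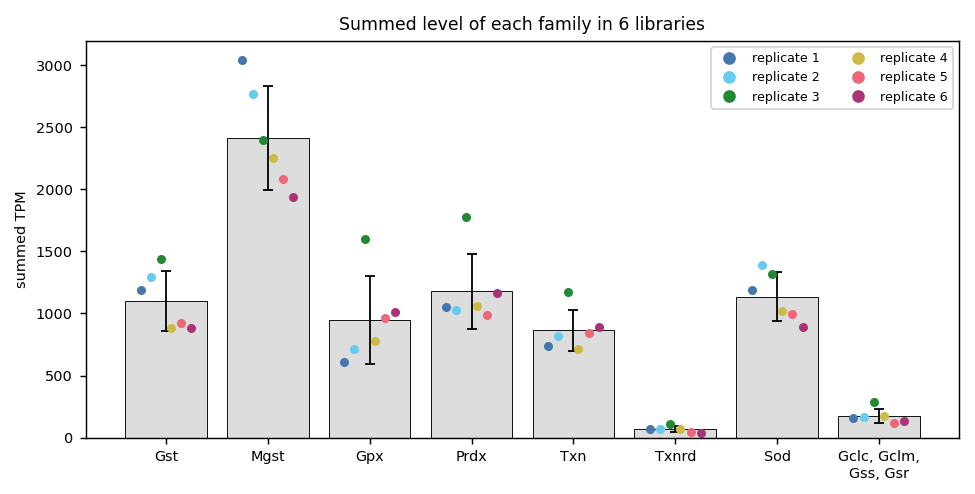
Summed TPM of each family (y axis), with the mean over 6 libraries as a bar, the SD as the error bar and 1 point per library. The Mgst sum has the highest mean, at 2412 TPM, and replicate 3 has the highest point in 6 of the 8 families, all but Mgst and Sod.

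Microsomal glutathione transferases are membrane proteins that conjugate glutathione or reduce lipid peroxides with it. Mgst3, on chromosome 1 (GRCm38, chr1:167371966-167393841, minus strand), was the most abundant of all 57 genes and ranked 28 of the 23420 genes of the table. Its level was 2784, 2501, 2024, 1972, 1865 and 1628 TPM in replicates 1 to 6, and it averaged 2129 ± 430 TPM (SD, n = 6). Replicates 1 and 2 were the highest, and these were also the libraries with the highest sums of tuft markers, 8017 and 7507 TPM against 4792 to 5558 TPM in the others. The enterocyte sums were also highest there (16268 and 12416 TPM against 7703 to 12050 TPM). Fabp1 made up most of these enterocyte sums, with 12794 and 9867 TPM against 4226 to 6420 TPM in the others. Fabp6, the next enterocyte marker by mean level, was lowest there, with 1477 and 1290 TPM against 1856 to 2673 TPM. The goblet sums were lowest in replicates 1 and 2 (996 and 778 TPM against 1857 to 4318 TPM). The part of any of these in the result was not tested. Mgst3 made up 87.95% ± 3.13 of the Mgst sum (SD, n = 6). Mgst1 averaged 162 ± 50.8 TPM and Mgst2 122 ± 23.1 TPM. Of the 4 related genes of eicosanoid synthesis that were looked at beside them, Alox5ap, Ltc4s and Hpgds are known tuft cell genes. Alox5ap, which presents arachidonic acid for leukotriene synthesis, averaged 1030 ± 370 TPM (SD, n = 6). Ltc4s, the leukotriene C4 synthase, averaged 419 ± 126 TPM. Hpgds, the sigma class transferase that makes prostaglandin D2, averaged 61.3 ± 8.27 TPM, and Ptges was listed above 0 in 2 libraries.

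Among the soluble glutathione transferases the pi and omega classes led, and the alpha class that is known from the intestinal epithelium was low. The 21 Gst genes summed to 1102 ± 241 TPM (SD, n = 6), and 13 of them averaged 10 TPM or more. By class, pi held 47.7% ± 2.96 of the sum, omega 24.7% ± 1.41, theta 12.9% ± 2.85, mu 8.77% ± 1.37, alpha 3.51% ± 2.93, zeta 1.93% ± 0.767 and kappa 0.506% ± 0.396. The shares of pi and omega did not overlap with each other or with those of any other class in any library.

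**Figure D3:**
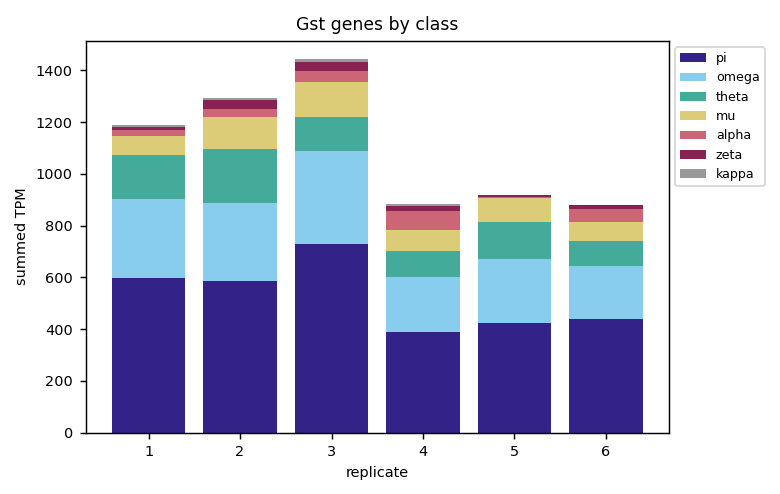
Summed TPM of the soluble glutathione transferase genes (y axis) in each of the 6 libraries (x axis), stacked by class. The pi class forms the base of each bar with 387 to 730 TPM, and the alpha class ranges from 3.90 TPM in replicate 5 to 74.3 TPM in replicate 4.

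Gstp1 (chr19:4035407-4037985, minus strand), the pi class enzyme, stood at 507, 514, 665, 362, 378 and 393 TPM in replicates 1 to 6. It was the most abundant Gst gene in all 6 libraries and held 42.5% ± 2.44 of the Gst sum (SD, n = 6). Its neighbour Gstp2 (chr19:4040285-4046023, minus strand) averaged 57.9 ± 23.5 TPM. The copies are close in sequence: 69.3% of the 25-base words of the Gstp1 transcript and 81.4% of those of the Gstp2 transcript occur in transcripts of another gene, so the split of reads between them is uncertain while their sum is less so. Gsto1, the omega class enzyme, averaged 272 ± 59.9 TPM, and Gsto2, next to it on chromosome 19, was listed at 0 in every library.

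The theta class, coded on chromosome 10, was led by Gstt1, at 80.1 ± 35.4 TPM (SD, n = 6), followed by Gstt3 at 40.3 ± 10.4 TPM and Gstt2 at 21.3 ± 4.69 TPM, whereas Gstt4 was listed at 0 throughout. Gstz1, which takes part in tyrosine breakdown, averaged 22.0 ± 12.2 TPM. Of the 7 mu class genes, which lie side by side on chromosome 3 (chr3:107895821-108044894), Gstm5 was the most abundant with 39.5 ± 13.8 TPM, Gstm1 had 18.3 ± 6.20 TPM, Gstm3 14.0 ± 8.92 TPM and Gstm7 11.6 ± 9.81 TPM. Gstm2, Gstm4 and Gstm6 had means of 2.23 to 6.62 TPM. In the alpha class, Gsta1 averaged 20.4 ± 14.98 TPM, Gsta4 12.5 ± 10.3 TPM and Gsta3 3.11 ± 0.829 TPM, and Gsta2 was listed at 0 in every library. Gsta1 shares 93.9% of its 25-base words with other genes, 89.9% with Gm3776, which the table lists at 5.98 to 14.7 TPM.

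Replicate 5 differed from the others in which transferases were listed above 0. In the order of replicates 1 to 6, Gsta1 was listed at 15.2, 13.4, 18.6, 41.6, 0 and 33.7 TPM. In the same order, Gstm3 was listed at 14.9, 16.6, 10.5, 27.5, 0 and 14.6 TPM. Gstm2 and Gstk1, the peroxisomal and mitochondrial kappa class enzyme, were above 0 in the other 5 libraries, though Gstk1 had only 0.52 TPM in replicate 6. Both were likewise listed at 0 in replicate 5. Gstm6, which lies next to Gstm3, and Gstm4, which lies next to Gstm1, had their highest values in that same library, at 6.53 and 9.22 TPM. The summed mu class was 90.8 TPM there against 72.6 to 135 TPM in the others. Of the 43 genes of the set that averaged 5 TPM or more, these 4 were at 0 in replicate 5 alone, against 39 of 9106 genes of the table at that level (0.428%). None of the 43 was at 0 in any other replicate alone. This pattern was picked out after the values had been seen. Gsta1, Gstm3, Gstm2 and Gstm6 share 93.9%, 40.9%, 24.7% and 20% of their 25-base words with other genes, Gstm4 6.18% and Gstk1 4.30%. The part of dividing shared reads between copies in the pattern was not tested. Replicate 5 also had the fewest genes listed above 0 (13044) and the highest Rn45s share (32.6%), and the part of either in the result was not tested.

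Glutathione peroxidases reduce hydrogen peroxide and organic peroxides with glutathione. Some of them, Gpx1 to Gpx4 in the mouse, carry selenocysteine at the active site, which is coded by TGA, a stop codon elsewhere. The codon and its surroundings are shown for the expressed members, in capitals for the 3 bases of the codon, 5′ to 3′ on the coding strand (GENCODE M21, GRCm38), and beside them for Gpx7, whose aligned codon is that of an ordinary cysteine.
Gpx1: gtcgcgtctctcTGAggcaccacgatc
Gpx2: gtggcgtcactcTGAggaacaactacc
Gpx4: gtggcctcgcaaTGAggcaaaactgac
Gpx7: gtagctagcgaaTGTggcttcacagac
The TGA codons lie in the coding sequence at chr9:108339451-108339453 (plus strand) for Gpx1, chr12:76795256-76795258 (minus strand) for Gpx2 and chr10:80054737-80054739 (plus strand) for Gpx4.

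The selenocysteine enzymes Gpx2, Gpx4 and Gpx1 held nearly all of the Gpx expression, and they differed in how steady they were. Gpx2, the gastrointestinal form, stood at 168, 278, 1093, 358, 485 and 607 TPM in replicates 1 to 6, a 6.51-fold range, with a mean of 498 ± 330 TPM (SD, n = 6). It was highest in replicate 3 and lowest in replicate 1. The summed enterocyte markers had their lowest value in replicate 3 (7703 TPM) and their highest in replicate 1 (16268 TPM). Fabp1 made up most of these 2 sums (5041 and 12794 TPM). Fabp6 and Alpi were higher in replicate 3 than in replicate 1, and the other enterocyte markers were lower. Goblet markers were low in replicates 1 and 2 (996 and 778 TPM) and highest in replicate 6 (4318 TPM). The part of these cell types in the result was not tested. Gpx4, which reduces lipid peroxides within membranes, stood at 282, 267, 242, 270, 239 and 249 TPM. Its coefficient of variation of 6.74% was the lowest of the 41 genes that averaged 10 TPM or more, whose median was 33.9% (31.0% over the 6986 genes of the table at that level). The transcript of Gpx4 shares 69.2% of its 25-base words with other genes, among them the pseudogene Gpx4-ps2. Gpx1, the widely expressed cytosolic form, averaged 186 ± 46.1 TPM.

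Gpx2 exceeded Gpx1 in all 6 libraries. The difference of Gpx1 minus Gpx2 was -1.20 ± 0.74 on the log2(TPM + 1) scale (SD, n = 6; two-sided exact sign-flip permutation test, p = 0.03125, which is the smallest p that 6 libraries allow, adjusted p = 0.0446 by Benjamini-Hochberg over 10 pairs). Within libraries the ratio of Gpx1 to Gpx2 ranged from 0.237 to 0.919. Gpx1 was lower than Gpx4 in 5 of 6 libraries, by -0.51 ± 0.41 on the same scale, which did not pass the test (exact p = 0.09375, adjusted p = 0.117). The remaining glutathione peroxidases were low or not seen. Gpx3, the plasma form, was listed above 0 in 4 libraries with a highest value of 8.31 TPM, Gpx7 in 4 libraries with up to 3.13 TPM, and the pseudogene Gpx2-ps1, which shares 61.8% of its 25-base words with Gpx2, had a mean of 0.363 TPM. Gpx5, Gpx6 and Gpx8 were listed at 0 in every library.

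Catalase, the peroxisomal enzyme that breaks down hydrogen peroxide without glutathione, was lower than Gpx1. Cat stood at 79.1, 53.8, 40.2, 43.98, 48.6 and 19.1 TPM in replicates 1 to 6. Gpx1 was higher in all 6 libraries, 1.95-fold to 8.15-fold (median 4.04-fold), with a difference of 2.02 ± 0.73 on the log2(TPM + 1) scale (SD, n = 6; exact sign-flip permutation p = 0.03125, adjusted p = 0.0446).

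Peroxiredoxins reduce peroxides through a reactive cysteine that thioredoxin restores. Prdx1, the main cytosolic form (chr4:116685544-116700822, plus strand), stood at 395, 392, 832, 403, 452 and 595 TPM in replicates 1 to 6, and replicate 3 was the highest. It led the family in all 6 libraries and held 42.9% ± 5.75 of the Prdx sum of 1179 ± 301 TPM (SD, n = 6). Prdx2, also cytosolic, averaged 235 ± 75.8 TPM, Prdx5 175 ± 42.4 TPM, and Prdx6, which uses glutathione in place of thioredoxin, 124 ± 26.8 TPM. Prdx3, the mitochondrial form, averaged 107 ± 24.9 TPM. Prdx4, the form of the endoplasmic reticulum, had 1.71 TPM in replicate 1 and 19.4 to 61.3 TPM in the others, and Prdx6b, a gene copy of Prdx6, did not pass 0.30 TPM. Prdx1 was higher than Prdx3 in all 6 libraries, 3.20-fold to 6.48-fold, by 2.23 ± 0.39 on the log2(TPM + 1) scale (SD, n = 6; exact sign-flip permutation p = 0.03125, adjusted p = 0.0446).

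The thioredoxin system was also led by its cytosolic members. Txn1, the cytosolic thioredoxin (chr4:57943373-57956411, minus strand), stood at 597, 682, 995, 640, 734 and 714 TPM in replicates 1 to 6, and Txn2, its mitochondrial counterpart, at 137, 139, 181, 76.8, 112 and 181 TPM. The ranges did not overlap. The difference was 2.43 ± 0.40 on the log2(TPM + 1) scale (SD, n = 6; exact sign-flip permutation p = 0.03125, adjusted p = 0.0446), or 3.94-fold to 8.33-fold. Thioredoxin reductases carry selenocysteine as the next-to-last residue, and their TGA codon is followed by 1 glycine codon and the stop codon. The end of the coding sequence is printed for the 3 genes with the TGA codon in capitals, to show the ending that these enzymes share (GENCODE M21, GRCm38, coding strand, 5′ to 3′).
Txnrd1: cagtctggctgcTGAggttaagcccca
Txnrd2: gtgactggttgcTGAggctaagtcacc
Txnrd3: cagaaaggctgcTGAggctagccctgc
These codons lie at chr10:82896037-82896039 for Txnrd1, chr16:18477772-18477774 for Txnrd2 and chr6:89674789-89674791 for Txnrd3, each on the plus strand. Txnrd1, the cytosolic enzyme, averaged 50.3 ± 20.6 TPM (SD, n = 6), Txnrd2, the mitochondrial one, 15.3 ± 9.20 TPM, and Txnrd3, known from the testis, 1.86 ± 1.68 TPM. Txnrd1 was higher than Txnrd2 in all 6 libraries, 1.42-fold to 8.27-fold, by 1.81 ± 0.93 on the log2(TPM + 1) scale (exact sign-flip permutation p = 0.03125, adjusted p = 0.0446).

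Superoxide dismutases turn superoxide into hydrogen peroxide. Sod1, the cytosolic copper and zinc enzyme (chr16:90220754-90226329, plus strand), stood at 1081, 1267, 1231, 936, 945 and 826 TPM in replicates 1 to 6 and ranked 84 among all genes of the table. Sod2, the manganese enzyme of mitochondria, stood at 94.3, 72.3, 67.7, 70.7, 39.8 and 48.6 TPM. The ranges did not overlap, and Sod1 was 11.5-fold to 23.8-fold higher (median 17.3-fold), by 4.01 ± 0.36 on the log2(TPM + 1) scale (SD, n = 6; exact sign-flip permutation p = 0.03125, adjusted p = 0.0446). This was the widest of the 10 differences tested. The transcripts taken for Sod1 and Sod2 are 641 and 5861 bases long, and the part of length in the difference was not tested. Sod3, the secreted form, averaged 22.5 ± 15.1 TPM, and its value of 53.0 TPM in replicate 2 stood apart from 12.5 to 20 TPM in the others.

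**Figure D4:**
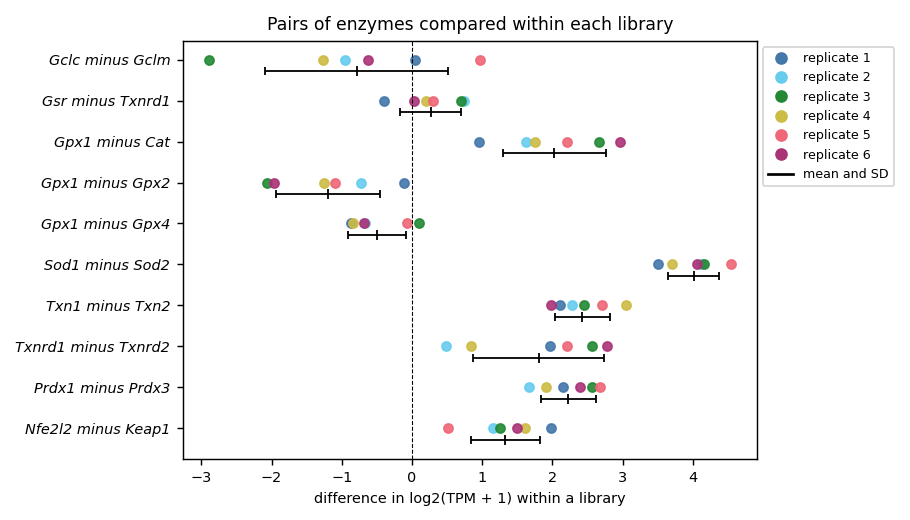
Difference in log2(TPM + 1) between the genes of each of 10 pairs, taken within a library (x axis), with 1 point per library (6 libraries) and a bar for the mean and SD. All 6 points lie on 1 side of 0 for 7 pairs, and the points of Gclc minus Gclm, Gsr minus Txnrd1 and Gpx1 minus Gpx4 lie on both sides.

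The enzymes that build and restore glutathione had means of 18.3 to 64.7 TPM, with Gss and Gsr above Gclc in every library. Gclc and Gclm encode the catalytic and the modifier subunit of glutamate-cysteine ligase, the rate-limiting enzyme of glutathione synthesis. Gclc stood at 28.4, 19.99, 7.84, 20.8, 17.97 and 14.6 TPM in replicates 1 to 6, and Gclm at 27.6, 39.7, 64.6, 51.6, 8.67 and 23.1 TPM. In replicate 3 the catalytic subunit was at its lowest and the modifier subunit at its highest. Gclc was lower in 4 of 6 libraries, and the difference of -0.79 ± 1.30 on the log2(TPM + 1) scale (SD, n = 6) did not pass the test (exact sign-flip permutation p = 0.25, adjusted p = 0.25). Without replicate 3 it was -0.37. Gss, glutathione synthetase, averaged 55.2 ± 11.2 TPM. Gsr, glutathione reductase, stood at 42.0, 66.2, 146, 51.6, 47.6 and 34.9 TPM, with replicate 3 far above the others. Gsr and Txnrd1, the reductases of the glutathione and thioredoxin systems, differed by 0.26 ± 0.43 (exact p = 0.21875, adjusted p = 0.243), with Gsr higher in 5 of 6 libraries, and did not pass the test. Without replicate 1 the difference was 0.40, and without replicate 2 it was 0.17.

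Nfe2l2 encodes the transcription factor NRF2, and Keap1 the adaptor that targets NRF2 for degradation. NRF2 is controlled mainly as a protein, so that transcript levels do not measure its activity. Nfe2l2 stood at 59.8, 67.0, 64.3, 49.4, 26.2 and 59.6 TPM in replicates 1 to 6 and Keap1 at 14.4, 29.6, 26.5, 15.6, 18.1 and 20.4 TPM. Nfe2l2 was higher in all 6 libraries, 1.45-fold to 4.14-fold, by 1.33 ± 0.50 on the log2(TPM + 1) scale (SD, n = 6; exact sign-flip permutation p = 0.03125, adjusted p = 0.0446). Nqo1, a quinone reductase and widely used NRF2 target, was low, at 2.52 to 18.2 TPM, and Hmox1, the heme-degrading heme oxygenase, averaged 17.1 ± 7.46 TPM.

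NRF2 is known to bind the antioxidant response element, whose core was searched as TGACNNNGC on both strands (GCNNNGTCA on the other) in RefSeq promoters of GRCm38.p6, from 250 bases before to 50 after the transcription start. Of the 48 members with a promoter in that table, 9 held a match (18.8%), against 14.0% of 27025 genes. A gene can have several promoters. Counted by promoter, 14.5% of the 62 promoters of members held a match, against 12.4% of 32851. Sequence outside this window was not searched. A match describes letters and not a bound site. All 9 matches are shown with 9 bases on either side, 5′ to 3′ on the strand of the gene, with the core in capitals.
Gclm: ctcccgggcGCACCGTCAactctcacg
Prdx1: agggaaagcGCTGAGTCAtcccccgta
Txnrd1: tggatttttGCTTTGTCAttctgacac
Mgst1: cggggcttgGCACGGTCAggaggcggg
Nfe2l2: cagcccaccTGACTCCGCcatgccccg
Sod1: ccaaggtggGCGTGGTCAgactcaggc
Gsta3: actcaggcaTGACATTGCatttttctt
Gstm5: accgcccacTGACCACGCggagggcgg
Gstm7: ctgaagaccTGACAAAGCgaagccaat
The promoters searched were chr3:122245307-122245606 (plus strand) for Gclm, chr4:116685349-116685648 (plus) for Prdx1, chr10:82858956-82859255 (plus) for Txnrd1, chr6:138140277-138140576 (plus) for Mgst1, chr2:75704614-75704913 (minus) for Nfe2l2, chr16:90220512-90220811 (plus) for Sod1, chr1:21240335-21240634 (plus) for Gsta3, chr3:107895604-107895903 (plus) for Gstm5 and chr3:107931565-107931864 (minus) for Gstm7. The match in Prdx1 is the 1 of the 9 that overlaps TGACTCA, the AP-1 motif.

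Across libraries, replicate 3 held the highest value for 19 of the 41 genes that averaged 10 TPM or more (46.3%), against 28.2% of all genes at that level. After rescaling by median-of-ratios factors it was 16 of 41 (39.0%), against 22.7%. The genes that peaked there came from several families, among them Gpx1, Gpx2, Prdx1, Prdx2, Txn1, Txnrd1, Gsr, Gss, Gclm, Gstp1 and Gsto1. Gclc, Hmox1 and Cat did not follow, with 7.84, 9.95 and 40.2 TPM in replicate 3. The summed level of all members was 10263 TPM in replicate 3 and 7079 to 8440 TPM in the other libraries. In this library the enterocyte sum (7703 TPM) and the lymphocyte sum (123 TPM) were the lowest. The stem and transit-amplifying sum (920 TPM) was the highest, and the tuft sum was 4903 TPM. Fabp1 made up most of that enterocyte sum (5041 TPM) but was lowest in replicate 5 (4226 TPM). Ptprc made up most of that lymphocyte sum (84.5 TPM) but was lowest in replicate 6 (74.2 TPM). Gzma, the next lymphocyte marker by mean level, was lowest in replicate 1 (10.4 TPM). The part of any of these cell types in the pattern was not tested. At the other end, replicate 5 held the lowest value for 14 of the 41 genes (25.8% of all genes at that level were lowest there) and replicate 6 for 8 (22.2% of all genes). After rescaling, replicate 5 held the lowest value for 10 genes, the same number as replicate 1, which had 7 before. The share of all genes lowest in each library after rescaling is not given here.

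**Figure D5:**
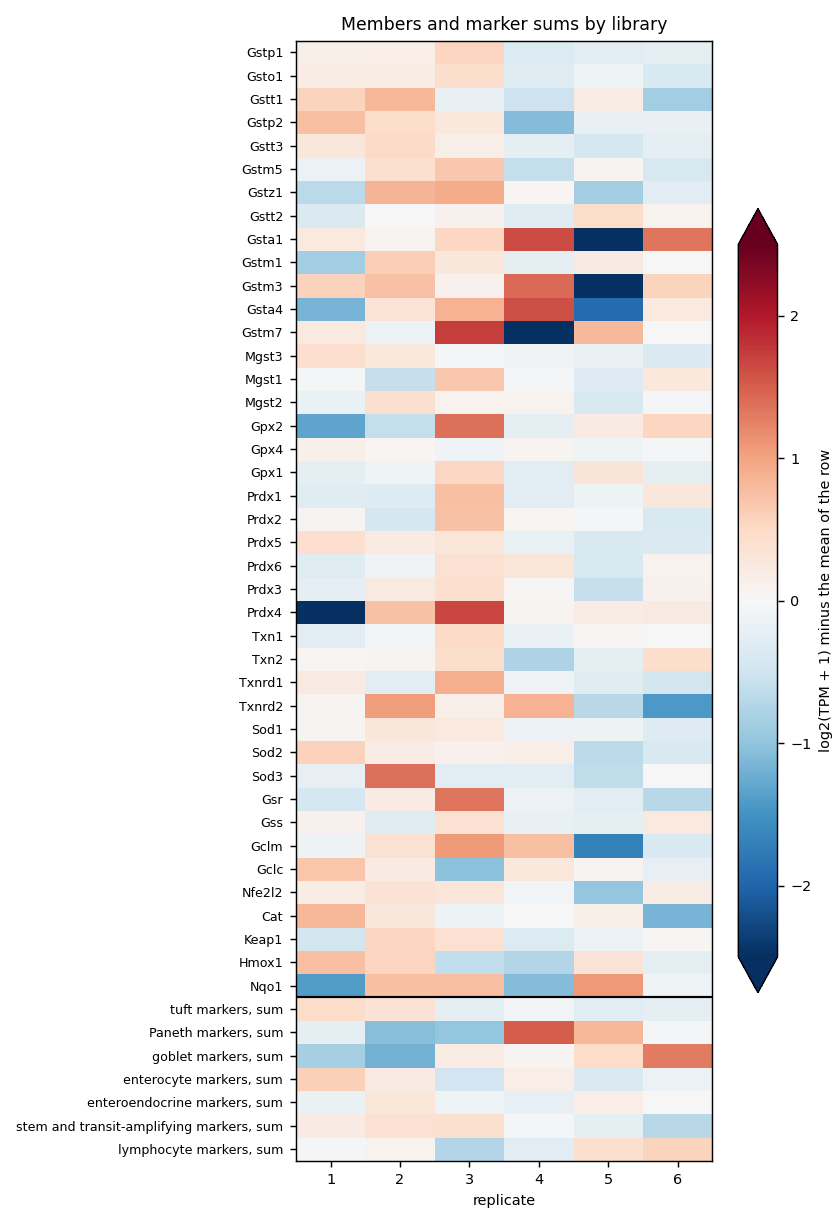
Heat map of log2(TPM + 1) minus the mean of the row in each of the 6 libraries (columns), for the 41 members that averaged 10 TPM or more and, below the line, the summed markers of 7 cell types. Red is above and blue below the mean of the row, with the scale cut at its ends. Replicate 3 is the highest column for 19 of the 41 members, and Gsta1, Gstm3 and Gsta4 are lowest in replicate 5.

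The pathways that feed these enzymes were expressed as well. NADPH, the electron source of both reductases, is supplied by enzymes of which all 9 looked at were listed above 0 in every library, with a median mean of 113 TPM. The most abundant were the pentose phosphate enzymes Taldo1 (329 ± 78.1 TPM; SD, n = 6) and Tkt (139 ± 44 TPM), the isocitrate dehydrogenase Idh1 (132 ± 44.6 TPM) and Pgd (123 ± 37.5 TPM). Of 21 further genes of glutathione supply and recycling, 17 were listed above 0 in every library and 14 averaged 10 TPM or more. They were led by glutaredoxin, Glrx (145 ± 42.8 TPM), the glutamine carrier Slc1a5 (131 ± 23.1 TPM), the formylglutathione hydrolase Esd (76.6 ± 16.9 TPM) and the glyoxalase Hagh (69.8 ± 13.1 TPM). The cystine carrier gene Slc7a11, named here after its values had been seen, stood at 0.27 to 1.16 TPM.

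All 14 genes of selenoprotein synthesis and the other selenoproteins that the table held were listed above 0 in every library, led by Selm (698 ± 182 TPM; SD, n = 6), Sepp1 (441 ± 202 TPM), Selk (171 ± 44.4 TPM) and Sephs2 (124 ± 26.5 TPM), which makes the selenium donor. Of 31 other thiol, peroxide and NRF2-linked genes, 25 were listed above 0 in every library and 21 averaged 10 TPM or more. The ferritin genes Fth1 (2372 ± 600 TPM) and Ftl1 (1778 ± 427 TPM) were the most abundant, before Sqstm1, an autophagy receptor that binds KEAP1 (240 ± 64.7 TPM), and Park7, a redox-sensitive chaperone (181 ± 40.9 TPM). Among 20 genes for sources of superoxide and hydrogen peroxide, 13 were listed above 0 in every library. Rac2 (598 ± 243 TPM), Cyba (136 ± 31.6 TPM) and Noxo1 (63.1 ± 7.26 TPM), which encode regulatory parts of NADPH oxidases, were among the most abundant of this list. The catalytic parts in the list were lower. Duox2 averaged 32.7 ± 19.1 TPM, Nox1 3.3 TPM, Cybb 0.38 TPM and Duox1 0.32 TPM, and Nox3 and Nox4 were listed at 0 in every library. Across the whole table, 11047 of 23420 genes were listed above 0 in every library.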

How the data were processed

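The authors aligned reads to the mm10 transcriptome with Bowtie, and the deposited values are TPM calculated by RSEM, given to 2 decimals; the submitters' processing notes also name TopHat and DESeq2, which played no part here. RSEM divides reads shared between transcripts by estimated shares, so values of close copies are uncertain. The labels name a 3' polyA and a droplet preparation beside SMART-Seq2 for every library, and the methods describe SMART-Seq2 only. Depth is unknown, and no counting interval or count model was used. Columns were matched to the 6 replicates by number. No 2 libraries held identical values, and Spearman correlations across genes were 0.915 to 0.937.

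Differences within libraries in log2(TPM + 1) were tested by two-sided exact sign-flip permutation over 64 assignments, checked on simulated data, with Benjamini-Hochberg adjustment over the 10 pairs. Members, pairs, pathway and marker lists were chosen with earlier results of these data known. All members are given; of each pathway list the 4 most abundant genes are named, apart from 1 that is not reported here. Positions and shared 25-base words came from GENCODE M21 on GRCm38 (mm10), in which all 57 symbols were found, and promoters from RefSeq. Codons were aligned through translated coding sequences. Alternatives were pseudocounts of 0.1 and 0.01, setting values under 0.1 TPM to 0, 2 rescalings, an exact Mann-Whitney test, other thresholds of detection, and leaving out libraries. Tools were scipy 1.17.1, numpy 2.4.6 and pandas 2.3.3 under Python 3.11.15, and figures were drawn with matplotlib 3.10.9.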

Additional observations from a re-analysis of the deposited data

Results flagged for a closer look

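Of the 51 genes listed above 0 in any library, 6 (11.8%) had a library that stood apart. There the gap to the nearest of the others, divided by the range of all 6, passed Dixon's 95% critical value for 6 samples. For normally distributed values chance gives about 1 in 20 groups, or 2.55 of 51. The share of all genes of the table that pass is not given here, so the 6 are not read as an excess.

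In replicate 3 this was Txn1 with 994.5 TPM (nearest 734.28 TPM, ratio 0.655), Prdx2 with 377.63 TPM (nearest 237.93 TPM, ratio 0.667), Gsr with 145.88 TPM (nearest 66.21 TPM, ratio 0.718) and Prdx6b with 0.3 TPM (nearest 0.08 TPM, ratio 0.733). Without replicate 3 the means were 673 TPM in place of 727 TPM for Txn1, 206 in place of 235 for Prdx2, 48.5 in place of 64.7 for Gsr and 0.058 in place of 0.0983 for Prdx6b. After median-of-ratios rescaling the ratio was 0.314 for Txn1 and 0.548 for Prdx2, below the critical value, and 0.783 for Gsr and 0.691 for Prdx6b, above it.

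Sod3 stood at 52.97 TPM in replicate 2 (nearest 20 TPM, ratio 0.814), and its mean was 16.4 TPM without that library. Gpx3 stood at 8.31 TPM in replicate 5 (nearest 2.00 TPM, ratio 0.759), and its mean was 0.572 TPM without it. Computed from log2(TPM + 1), the ratios of Sod3 (0.679) and Prdx6b (0.707) were still past that value, and those of the other 4 genes, 0.508 to 0.595, were not.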

How the results depend on the processing

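Under pseudocounts of 0.1 and 0.01, values under 0.1 TPM set to 0 and either rescaling, all 10 pairs kept their direction and their side of the threshold. By the exact Mann-Whitney test over 924 assignments, Gpx1 and Gpx4, with a difference of -0.51, passed the threshold (p = 0.0152, adjusted p = 0.0189), and the other 9 pairs did not change their call; that test does not use which values share a library. Rescaled without Rn45s and Gm20594, which raises every other gene by construction, the family sums averaged 1585 TPM (Gst), 3486 (Mgst), 1376 (Gpx), 1705 (Prdx), 1257 (Txn), 96.3 (Txnrd), 1639 (Sod) and 249.5 (Gclc, Gclm, Gss and Gsr), and 29 of 51 genes moved beyond 1 SD, against 0 under median-of-ratios factors. Leaving out each library in turn changed the direction of no pair, but 5 libraries cannot give an exact p under 0.0625 nor 3 under 0.25, so these are values without a test. Of the 10 differences it moved Gclc minus Gclm over 1.5-fold (to -0.37 without replicate 3), as it did Gsr minus Txnrd1 (to 0.40 without replicate 1 and 0.17 without replicate 2), and replicates 1 to 3 and 4 to 6 alone gave -1.27 and -0.31 for Gclc minus Gclm. It moved 4 means over 1.5-fold: Gpx2-ps1 to 0.20 TPM and Prdx6b to 0.058 TPM without replicate 3, and Gpx3 to 0.572 TPM and Gstm6 to 1.37 TPM without replicate 5. No pairing of samples between groups was possible because the libraries form 1 group. The 2 genes of each pair were compared within libraries, which is a paired comparison. Of the 57 genes, 15 share at least 10% of their 25-base words with another gene, and 8 overlap a gene on the opposite strand, so their levels are the least certain; whether reads were counted by strand is not given in the sources used here.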
